A study of Homo sapiens with 2 samples.

Results

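The genes described here are those that differed at least 2-fold between the 2 arrays and whose deposited annotation places the protein in the nucleus. By a single symbol each, 190 genes are named in the authors' deposited tables of probe sets past 2-fold. Of these, 166 carry a Gene Ontology cellular component annotation, and 46 of them hold the exact term nucleus. After 11 genes were set aside by name, 35 genes on 38 probe sets remained, 18 of them higher and 17 lower in the knockdown. Direction and size were part of how these genes were chosen, so their differences are given as a description, with no test.

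Total RNA came from Hep3B cells in which a hairpin RNA knocks down caveolin-1 (shCav1) and from Hep3B cells with a hairpin that has no target (shCtl), both grown in the high-glucose medium DMEM-HG, with 1 array for each. Hep3B is an established human line of hepatocellular carcinoma (HCC in the labels), and caveolin-1, the product of CAV1, is the coat protein of plasma membrane pits called caveolae. Whether either line is a clone or a pool, and which hairpin sequence was used, is not stated in the labels. With 1 array per group there is no replicate error, no p-value is given, and what follows from the loss of CAV1 cannot be told apart from anything else in which these samples differ. In bulk RNA of this kind, fewer cells with a transcript and less of it per cell cannot be told apart either.

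The nucleus holds the proteins that decide which genes are read and how their transcripts are finished. Transcription factors bind short DNA motifs, chromatin proteins load and modify histones, and RNA-binding proteins choose splice sites and ends of transcripts. Many other proteins visit the nucleus while working mainly elsewhere, among them chaperones, ubiquitin ligases, metabolic enzymes and fragments of membrane receptors. In liver cells the first class is led by factors that keep hepatocyte identity, while homeobox factors of limb and face development are more typical of mesenchyme and embryo.

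The annotation was uneven in its evidence and in how far it was specific to the nucleus. For 10 of the 35 genes the term rested at least in part on a direct assay, and for 18 it was inferred from electronic annotation alone. A place outside the nucleus, leaving aside the general term intracellular, was missing for 14 genes. Of the remainder, 15 were also annotated to cytoplasm or cytosol and 5 to the plasma membrane. By the places listed, the label of nuclear protein is specific for factors such as IRX3, PRRX1, TOX, DLX2 and RFX6. It is loose for ITGA2, VLDLR, AMIGO2 and CRYAB. The evidence does not follow that order. For IRX3, PRRX1, TOX and DLX2, as for ITGA2, VLDLR and AMIGO2, the term rested on electronic annotation alone. For CRYAB it rested at least in part on a direct assay.

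Promoter windows of 6 members are printed here because these genes carry the main results below: the largest increase (ZNF22), a homeobox factor that was higher (PRRX1), an E-box-binding factor that was higher (BHLHE41), and a splicing regulator, an autophagy receptor and a homeobox factor that were lower (MBNL2, SQSTM1, DLX2). Each runs from 250 bases before to 50 bases after a gene start in RefSeq on GRCh38.p14, written in the direction of transcription. Capitals mark the GC box GGGCGG, the E-box CACGTG and the AP-1 element TGACTCA, on either strand. The ZNF22 window lies at chr10:45000673-45000972 on the plus strand, PRRX1 at chr1:170663881-170664180 on the plus strand and BHLHE41 at chr12:26124988-26125287 on the minus strand. The MBNL2 window lies at chr13:97141584-97141883 on the plus strand, SQSTM1 at chr5:179806143-179806442 on the plus strand and DLX2 at chr2:172102851-172103150 on the minus strand.
ZNF22: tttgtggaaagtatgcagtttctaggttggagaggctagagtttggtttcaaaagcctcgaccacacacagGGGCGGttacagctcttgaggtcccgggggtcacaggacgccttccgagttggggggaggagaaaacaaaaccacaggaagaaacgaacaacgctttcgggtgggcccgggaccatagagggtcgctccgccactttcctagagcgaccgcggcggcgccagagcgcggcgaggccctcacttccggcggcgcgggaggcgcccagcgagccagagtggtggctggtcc
PRRX1: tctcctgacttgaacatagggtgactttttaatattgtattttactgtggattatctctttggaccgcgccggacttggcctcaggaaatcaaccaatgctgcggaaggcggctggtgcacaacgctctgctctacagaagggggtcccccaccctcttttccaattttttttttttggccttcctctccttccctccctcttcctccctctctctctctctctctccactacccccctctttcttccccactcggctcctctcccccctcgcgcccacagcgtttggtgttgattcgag
BHLHE41: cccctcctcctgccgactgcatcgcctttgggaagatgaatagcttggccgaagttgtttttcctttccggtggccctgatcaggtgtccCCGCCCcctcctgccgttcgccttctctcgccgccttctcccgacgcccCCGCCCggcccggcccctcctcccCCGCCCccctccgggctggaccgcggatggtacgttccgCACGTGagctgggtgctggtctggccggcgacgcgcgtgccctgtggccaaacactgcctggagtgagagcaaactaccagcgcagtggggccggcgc
MBNL2: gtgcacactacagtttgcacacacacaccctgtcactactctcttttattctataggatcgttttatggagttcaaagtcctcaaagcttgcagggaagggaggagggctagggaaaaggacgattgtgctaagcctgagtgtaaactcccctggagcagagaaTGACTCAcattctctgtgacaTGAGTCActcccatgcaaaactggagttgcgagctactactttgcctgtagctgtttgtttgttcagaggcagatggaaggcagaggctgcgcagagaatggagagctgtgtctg
SQSTM1: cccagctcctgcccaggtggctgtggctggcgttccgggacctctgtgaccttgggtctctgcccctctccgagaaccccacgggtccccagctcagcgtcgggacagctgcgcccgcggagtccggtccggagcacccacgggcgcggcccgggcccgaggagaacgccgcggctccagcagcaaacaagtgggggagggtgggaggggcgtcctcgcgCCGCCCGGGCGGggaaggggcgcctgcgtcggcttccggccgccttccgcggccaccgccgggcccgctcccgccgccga
DLX2: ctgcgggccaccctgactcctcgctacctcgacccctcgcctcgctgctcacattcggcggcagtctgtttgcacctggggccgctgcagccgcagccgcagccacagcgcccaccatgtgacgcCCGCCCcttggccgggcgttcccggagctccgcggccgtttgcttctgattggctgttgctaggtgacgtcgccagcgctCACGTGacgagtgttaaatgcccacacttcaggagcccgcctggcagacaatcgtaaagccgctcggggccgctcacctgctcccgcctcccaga

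The hairpin's target was checked before the nuclear genes were read. At the 2 listed CAV1 probe sets the linear signal was 61.8 and 38.7 in shCav1, against 935 and 524 in shCtl, so 6.61% and 7.38% of the control signal was left. All 18 probe sets for bacterial hybridization spikes were brighter in shCav1, with a median log2 difference of 0.14. The 5′ control probe set was lower relative to its 3′ partner on the shCav1 array in 12 of 14 pairs, by a median of -0.19 on the log2 scale. Most of these pairs are for bacterial control transcripts, not transcripts of the cells. Several of those transcripts are probed by more than a single pair, so the pairs are not independent. The pairs for human transcripts mostly went the same way. Those for actin, ISGF3A, M27830 and GAPDH were at -0.66, -0.34, -0.30 and -0.19, and the pair named HUMRGE was at 0.06. The part of these array differences in the values below was not tested, apart from centring on the spikes. Of 30 marker genes for hepatocytes, fibroblasts and stellate cells, endothelium, leukocytes and cholangiocytes, FGG, a hepatocyte gene, was the member that carried a listed probe set. Probe sets under 2-fold have no gene name here, so levels of the other markers, and the liver identity of the cells, could not be read.

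A probe set was kept when the brighter of its 2 arrays reached a linear signal of 30.7, which is the median over both arrays. Among the 28128 kept probe sets 0.501% were at least 2-fold higher and 0.299% at least 2-fold lower, and the spread of all kept log2 differences had a robust SD of 0.21. Of the nuclear genes, 18 of the 18 higher and 15 of the 17 lower had a kept probe set. Those counts follow from the choice of members and are not read against the background. ZBTB10 and NASP were the 2 that did not pass. The signal of a probe set depends on its probes as well as on its transcript, so levels are compared between arrays and not between genes. Most members were read at a single listed probe set, and any other of the same gene under 2-fold would have no name here. A value then stands for that probe set, and not for every transcript of the gene. The shCav1 signals were obtained from the shCtl signals and the deposited differences. As a guide to how far a value rests on dim signals, differences are also given after adding a pseudocount of 16 to both signals, which pulls dim values towards 0.

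Which direction held the larger median is set in part by the scaling and the 2-fold choice of members, and is given as a description. As deposited, the median log2 difference was 1.30 over the 18 higher genes and -1.12 over the 15 kept lower genes. In the higher genes the largest was 2.46, and 5 genes passed 3-fold (0.149% of all kept probe sets did), namely ZNF22, NAP1L3, IRX3, AFF3 and PGAM2. In the lower genes the largest decrease was -1.55, for CA2, and 0 of 15 passed 3-fold, as 0.0569% of all kept probe sets did. Members were already chosen past 2-fold, so these counts are not like the shares of all kept probe sets. Over all genes with a single symbol the medians were 1.26 for 114 higher and -1.18 for 62 lower genes with a kept probe set. Of those, 33 higher and 11 lower genes passed 3-fold. Among kept nuclear genes set aside by name, 2 of 4 higher and 3 of 6 lower ones did, so the 0 depends on that choice. Centred on the spikes, the order turned, with medians of 1.17 for the higher and -1.26 for the lower nuclear genes. Centring lowers every value by 0.14, and the members stay those chosen at 2-fold on the deposited scale. The turn therefore follows from the shift, and nothing is read from it. With that centring ZNF22, NAP1L3 and IRX3 stayed past 3-fold, AFF3 at 1.55 and PGAM2 at 1.52 did not, and CA2, at -1.68, did.

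**Figure D1:**
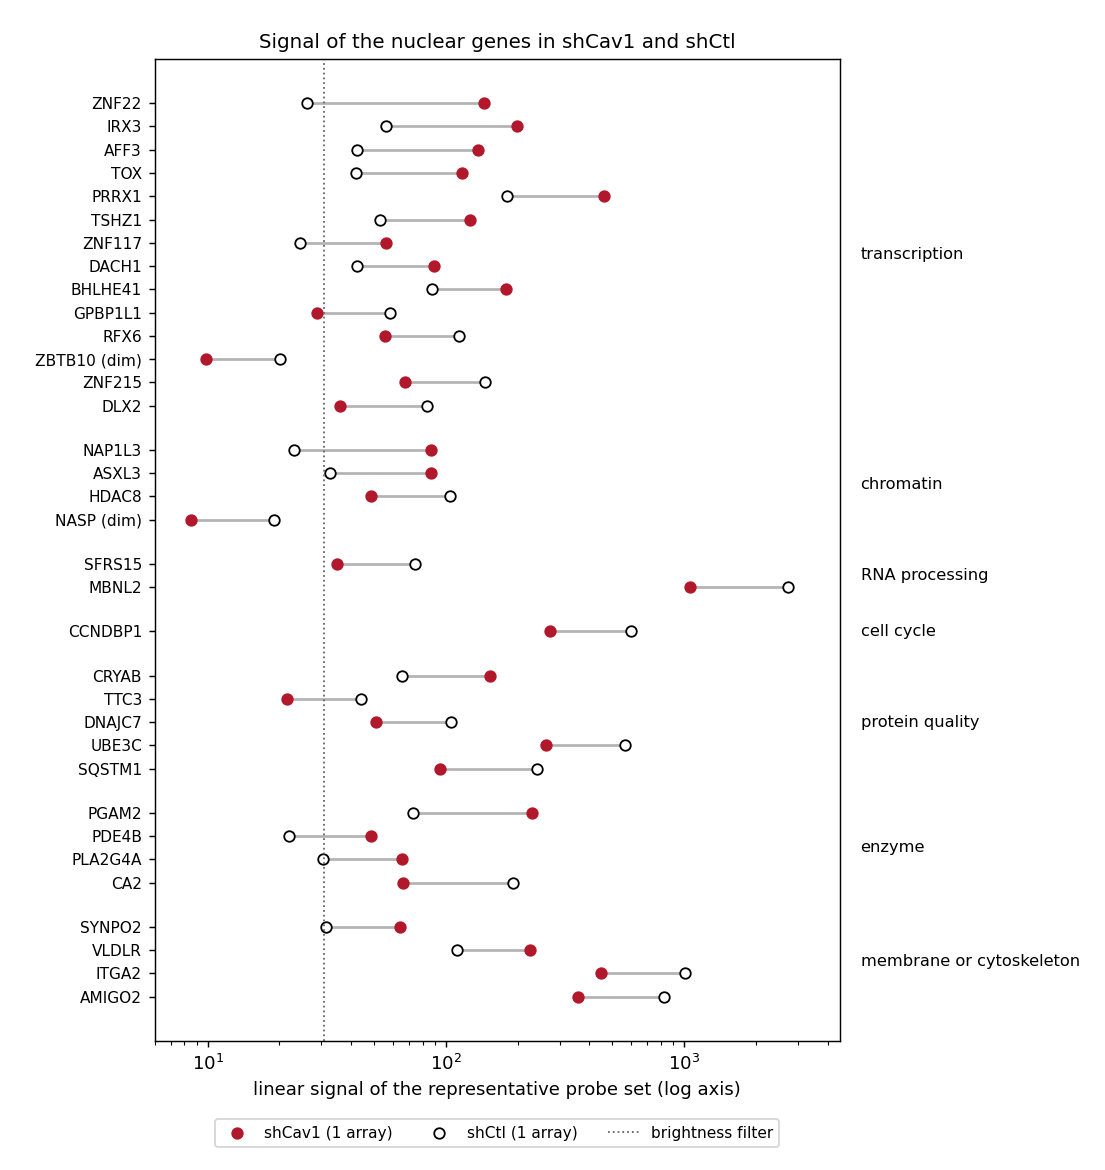
Linear signal (log axis) of 34 of the nuclear genes at its representative probe set, filled red for shCav1 and open for shCtl, 1 array each, with genes grouped by role down the page and the brightness filter dotted. In the transcription group the 9 genes at the top had the red point on the right and the 5 below had it on the left; ZBTB10 and NASP, marked dim, lie wholly left of the filter.

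Transcription factors made up the largest class. The deposited annotation gave the function term DNA binding to 9 of the 18 higher and 5 of the 17 lower genes, and a sequence-specific transcription factor activity to 6 and 2. None of the 83 higher and 37 lower genes annotated to other places held the DNA binding term, which follows from how the terms go together. Terms of organismal development were held by 5 higher factors (AFF3, DACH1, IRX3, PRRX1 and TSHZ1) and by 1 lower factor, RFX6. Of genes annotated to other places, 7 of 83 higher and 3 of 37 lower held such a term. Process terms of DLX2 were not used here.

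ZNF22, a zinc finger protein of the type that grips DNA with paired cysteines and histidines, had the largest increase of all members. Its signal was 144 in shCav1, against 26.1 in shCtl, a log2 difference of 2.46 at its brighter listed probe set. A further listed probe set read 46.0 in shCav1, against 16.7 in shCtl, a log2 difference of 1.46. Both probe sets were higher but did not give the same size, with a mean of 1.96 ± 0.71 (SD over 2 probe sets of the same arrays, a technical spread). Any probe set of ZNF22 under 2-fold would have no name here. The deposited alignments, of a genome build that neither labels nor headers name, lie on chromosome 10 from 45498602 to 45500777 and from 45498727 to 45499526, plus strand. In shCtl both signals were under the array median of 30.6, and with a pseudocount of 16 the differences were 1.93 and 0.92.

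Homeobox factors differed in both directions. IRX3, an Iroquois-class homeobox factor that patterns the neural tube and limb, had a signal of 199 in shCav1, against 55.8 in shCtl, a log2 difference of 1.83. PRRX1, a paired-related homeobox factor of limb and craniofacial mesenchyme, had 462 in shCav1, against 181 in shCtl, a log2 difference of 1.35. PRRX1 was the higher member least touched by the pseudocount, at 1.28. DLX2, a distal-less homeobox factor of branchial arch and forebrain, went the other way, with 35.9 in shCav1, against 83.1 in shCtl, or 43.2% of the control signal. TSHZ1, a teashirt-type zinc finger factor that also carries a homeobox, had 126 in shCav1, against 52.9 in shCtl, a log2 difference of 1.26. Of these 4 homeobox genes 3 were higher and 1 was lower, beside 64.2% higher among all 190 genes with a single symbol.

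Further regulators with increases were AFF3, TOX, DACH1, BHLHE41 and ZNF117. AFF3, of the AF4 family tied to transcription elongation, had 136 in shCav1, against 42.4 in shCtl, a log2 difference of 1.69. TOX, a factor of the high mobility group known from T-cell development, had 117.0 in shCav1, against 42.0 in shCtl, a log2 difference of 1.48. Both stayed past 2-fold with the pseudocount, at 1.38 and 1.20. DACH1, a corepressor of the dachshund family, had 88.9 in shCav1, against 42.3 in shCtl, and a log2 difference of 1.07. BHLHE41, a repressor of the circadian clock that binds E-boxes, had 178 in shCav1, against 87.5 in shCtl, and a log2 difference of 1.03. ZNF117, a zinc finger protein, had 55.9 in shCav1, against 24.5 in shCtl, and a log2 difference of 1.19 at a probe set whose name ends in _x_at, which marks probes that can bind other transcripts. With the pseudocount these last genes were under 2-fold, DACH1 at 0.85, BHLHE41 at 0.91 and ZNF117 at 0.83. Centred on the spikes DACH1 was at 0.94 and BHLHE41 at 0.89, also under 2-fold.

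Besides DLX2, 4 factors were lower. ZNF215, a zinc finger gene of the 11p15 region, had 67.3 in shCav1, against 146 in shCtl, or 46.0%. RFX6, a winged-helix factor of pancreatic endocrine cells, had 55.5 in shCav1, against 113 in shCtl, or 49.1%. GPBP1L1, a relative of a protein that binds GC-rich promoters, had 28.9 in shCav1, against 58.1 in shCtl, or 49.7%. ZBTB10, a zinc finger repressor with a BTB domain, had 9.82 in shCav1, against 20.1 in shCtl, under the brightness filter on both arrays. With the pseudocount all 5 lower factors were under 2-fold, with log2 differences of -0.93 for DLX2, -0.96 for ZNF215, -0.85 for RFX6, -0.72 for GPBP1L1 and -0.48 for ZBTB10. Centred on the spikes the 5 lay between -1.14 and -1.35.

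Proteins that handle histones were found on both sides. NAP1L3, of the nucleosome assembly protein family, had 86.8 in shCav1, against 23.0 in shCtl, a log2 difference of 1.92. ASXL3, a relative of the fly Additional sex combs protein that works in histone H2A deubiquitination, had 86.2 in shCav1, against 32.5 in shCtl, a log2 difference of 1.41. HDAC8, a class I histone deacetylase, had 48.4 in shCav1, against 104 in shCtl, or 46.4%. NASP, a chaperone that supplies histones to chromatin, had 8.54 in shCav1, against 19.1 in shCtl, both under the brightness filter, so that its 44.8% rests on signals close to background. With the pseudocount NAP1L3 and ASXL3 stayed past 2-fold at 1.40 and 1.08, HDAC8 was at -0.90 and NASP at -0.52.

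NASP and GPBP1L1, both lower, are near neighbours on chromosome 1. In the RefSeq gene order 1 protein-coding gene lies between them, and their deposited alignments are 44.3 kb apart, on opposite strands. Of all pairs of the 35 genes they were the pair with at most 5 protein-coding genes between its members. The deposited NASP alignment runs from 46074366 to 46075197 and that of GPBP1L1 from 46119495 to 46122074.

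RNA-processing proteins were found only among the lower genes, 2 in number, beside 68 lower among all 190 genes with a single symbol. This split was not tested. MBNL2, a muscleblind protein that switches alternative exons, had 1057 in shCav1, against 2715 in shCtl at its brighter listed probe set, or 38.9%. Its other listed probe set had 19.9 in shCav1, against 43.7 in shCtl, a log2 difference of -1.13 compared with -1.36 at the brighter one. The mean was -1.25 ± 0.16 (SD over 2 probe sets), and the dimmer one was at -0.73 with the pseudocount. Probe sets of MBNL2 under 2-fold would have no name here, so the likeness of these 2 follows in part from the listing. MBNL2 was the member least touched by the pseudocount, which left its brighter probe set at -1.35. SFRS15, now named SCAF4, which binds the tail of RNA polymerase II and helps prevent early transcript ends, had 34.9 in shCav1, against 74.3 in shCtl, or 47.0%. With the pseudocount it was under 2-fold, at -0.83.

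Of 5 proteins of folding and turnover, 4 were lower, beside 68 lower among all 190 genes with a single symbol. The roles were chosen with the values known, and this split was not tested. Each of the 5 had a single listed probe set, and others of the same gene under 2-fold would have no name here. SQSTM1, the receptor that brings ubiquitin-tagged cargo to autophagy, had 94.7 in shCav1, against 242 in shCtl, or 39.2%. UBE3C, a ubiquitin ligase that acts at the proteasome, had 264 in shCav1, against 565 in shCtl, or 46.6%. TTC3, a ubiquitin ligase encoded on chromosome 21, had 21.6 in shCav1, against 44.2 in shCtl, or 48.9%. Terms that name ubiquitin were found in these 3 lower genes and in 0 higher ones, as far as process terms could be used. Among genes annotated to other places 2 of 83 higher and 1 of 37 lower genes held such a term. DNAJC7, a cochaperone of the heat shock proteins, had 51.1 in shCav1, against 105 in shCtl, or 48.8%. CRYAB, a small heat shock protein of lens and muscle, was the higher one, with 154 in shCav1, against 65.7 in shCtl, and a log2 difference of 1.23. With the pseudocount SQSTM1, UBE3C and CRYAB stayed past 2-fold, at -1.22, -1.06 and 1.05, and TTC3 and DNAJC7 did not, at -0.68 and -0.85.

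CCNDBP1, a helix-loop-helix protein that binds D-type cyclins and restrains the cell cycle, had 274 in shCav1, against 599 in shCtl, or 45.7%. It and NASP were the members whose terms name the cell cycle, and both were lower, beside 68 lower among all 190 genes with a single symbol. NASP was under the brightness filter on both arrays, and the genes set aside by name were not counted here. Process terms were used for 31 of the 35 genes, 16 higher and 15 lower, and 0 of these 31 held one for DNA repair. The function term protein kinase activity was held by 0 of the 35.

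Of 4 enzymes annotated to the nucleus next to their main place 3 were higher, beside 64.2% higher among all 190 genes with a single symbol. PGAM2, the muscle form of the glycolytic enzyme phosphoglycerate mutase, had 229 in shCav1, against 72.5 in shCtl, a log2 difference of 1.66. PDE4B, which breaks down cyclic AMP, had 48.5 in shCav1, against 22.0 in shCtl, a log2 difference of 1.14. PLA2G4A, the cytosolic phospholipase that frees arachidonic acid from membranes, had 65.2 in shCav1, against 30.4 in shCtl, a log2 difference of 1.10. CA2, a carbonic anhydrase that balances bicarbonate and acid, was lower, with 65.8 in shCav1, against 192 in shCtl, or 34.3%, the largest decrease of the set. PGAM2 and CA2 stayed past 2-fold with the pseudocount, at 1.47 and -1.35, whereas PDE4B and PLA2G4A were at 0.76 and 0.81.

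Membrane and cytoskeletal proteins closed the set. VLDLR, a lipoprotein receptor, had 227 in shCav1, against 111 in shCtl, a log2 difference of 1.03. SYNPO2, an actin-binding protein that moves between muscle Z discs and the nucleus, had 64.5 in shCav1, against 31.3 in shCtl, a log2 difference of 1.04. VLDLR and SYNPO2 were under 2-fold with the pseudocount, at 0.93 and 0.77, and centred on the spikes, at 0.89 and 0.90. ITGA2, the collagen-binding alpha-2 integrin subunit, was lower, with 449 in shCav1, against 1007 in shCtl, or 44.6%. AMIGO2, an adhesion protein with leucine-rich repeats, had 357 in shCav1, against 824 in shCtl, or 43.3%. Both were little changed by the pseudocount, at -1.14 and -1.17.

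**Figure D2:**
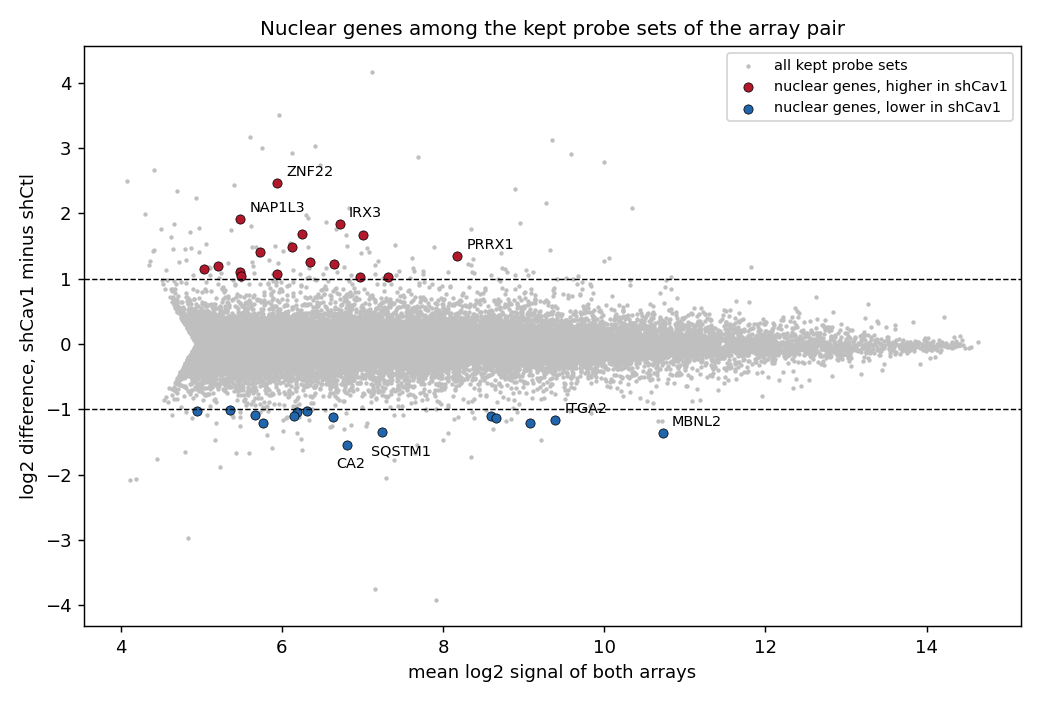
Log2 difference of shCav1 minus shCtl (vertical) against the mean log2 signal of both arrays (horizontal) for the 28128 kept probe sets in grey and 32 nuclear genes with a kept probe set in colour, dashed lines at 2-fold. Of the higher genes 1, PRRX1, lies at a mean linear signal of at least 256, and of the lower genes 5 do.

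Closeness to background differed between the directions. The shCtl signal was under 100 for 16 of the 18 higher genes and for 4 of the 15 kept lower genes, and it was under the array median for 5 of 18 and 2 of 17. This follows in part from the choice of members, since a higher gene has its lower value in shCtl. By the mean of both arrays, 8 higher and 4 lower genes lay at a linear signal of 16 to 64, 9 and 6 at 64 to 256, and 1 and 5 at 256 or more. Among all kept probe sets the share at least 2-fold higher in those bands was 0.633%, 0.546% and 0.334%, and the share lower was 0.311%, 0.357% and 0.229%.

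**Figure D3:**
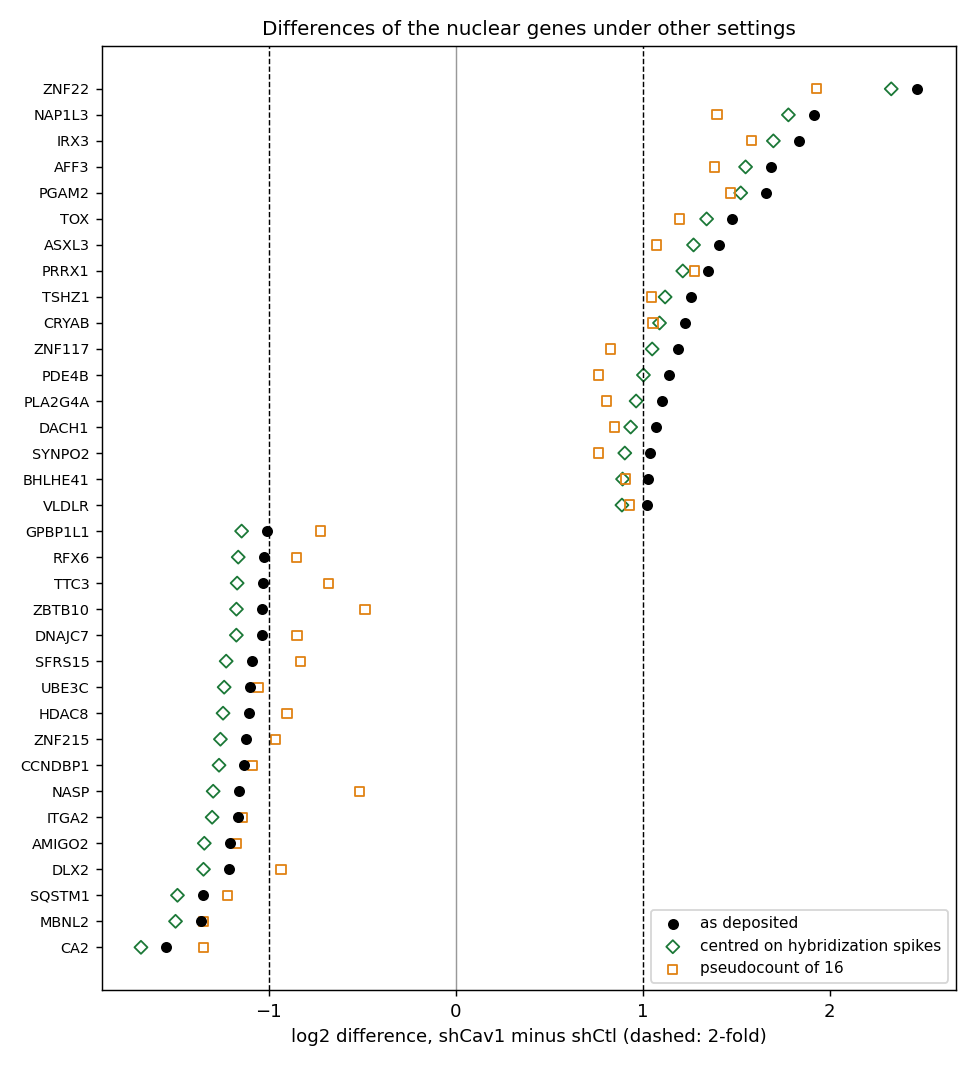
Log2 difference of shCav1 minus shCtl for 34 of the nuclear genes as deposited (black), centred on the hybridization spikes (green diamonds) and with a pseudocount of 16 (orange squares), dashed lines at 2-fold. No gene changes sign, which the choice of members at 2-fold and the form of these settings fix beforehand. With the pseudocount 7 higher genes, and 8 lower genes past the brightness filter, fall inside the dashed lines.

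Members at the edge of the limit show how the set would change with a slightly different one. The members just inside it were VLDLR at 1.03, BHLHE41 at 1.03 and SYNPO2 at 1.04 among the higher genes. Among the kept lower genes they were GPBP1L1 at -1.01, RFX6 at -1.03 and TTC3 at -1.03. The nearest kept probe sets outside the limit differed from 2-fold by less than 1e-05 on the log2 scale, and they have no gene name here.

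The deposited alignment of a probe set covers a stretch of the genome, introns included, and does not place the single probes. It spanned under 10% of the length of the gene in RefSeq for 8 of the 18 higher and 9 of the 17 lower genes, with medians of 34.8% and 4.24%. In genes annotated to other places it did so for 27 of 82 higher and 15 of 37 lower genes, with medians of 60.3% and 54.5%. Among the lower members the alignment of DNAJC7 spanned 1.19 kb beside a gene length of 41.0 kb, that of HDAC8 5.23 kb beside 243 kb, that of SFRS15 1.10 kb beside 61.1 kb and that of SQSTM1 1.12 kb beside 31.7 kb. At the other end the alignment of UBE3C spanned 130 kb, about the length of the gene, and that of CA2 17.3 kb beside 17.5 kb. The percentage that the authors' deposited table gives with each alignment, whose meaning it does not state, was under 80 for 4 of the 18 higher and 7 of the 17 lower genes, against 11 of 82 and 4 of 37 in genes annotated to other places. The lowest were TTC3 at 52.8 and DNAJC7 at 57.3, and how well these probe sets match the named gene was not tested. A short span does not say whether the other transcripts of the gene differed, and the part of isoforms in these values was not tested.

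**Figure D4:**
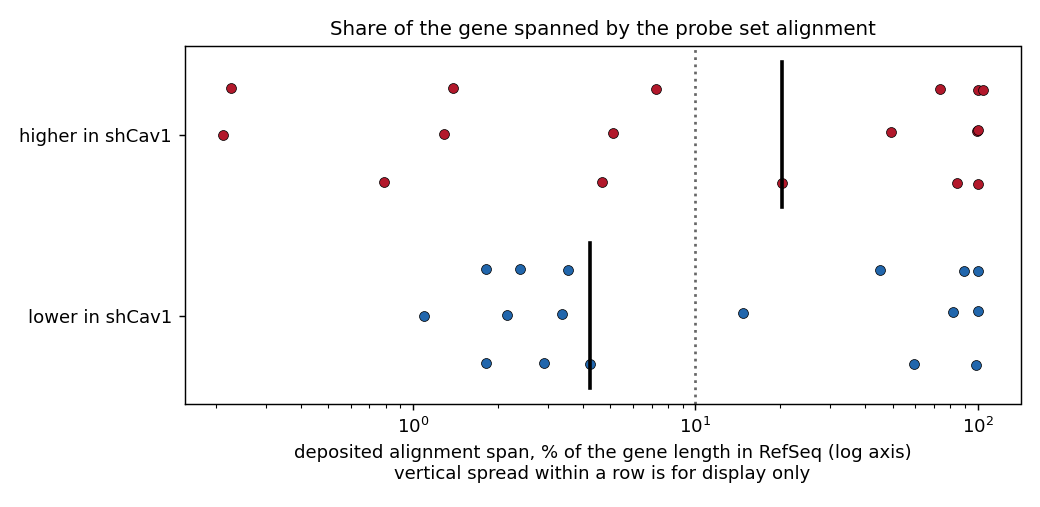
Span of the deposited alignment of each gene's representative probe set as a percentage of the gene's length in RefSeq (log axis), for 17 genes higher and 17 lower in shCav1; black bars are medians of the points shown and the dotted line is 10%. The lower genes fall into a cluster of 9 under 10% and a spread of 8 above it.

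Promoter windows were on hand for 26 of the 35 genes, 13 higher and 13 lower. Their G and C content had a median of 58.3% in the higher genes (range 39.7% to 79.0%), equal to the median of 58.3% over 27305 genes, and of 69.7% in the lower genes (48.7% to 77.0%). The range of the lower genes lies within that of the higher ones. A GC box on either strand was present in 5 of 13 higher and 10 of 13 lower genes, against 44.6% of all windows at the start RefSeq lists first. When every listed start of a gene was searched, the counts were 7 of 13 and 10 of 13, against 48.3% of all genes. The background is all genes with a window, whether or not they were read on these arrays, and the contrast was not tested. SQSTM1, shown above, held 2 GC boxes side by side, and MBNL2 none.

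The E-box CACGTG was present in 1 higher gene, BHLHE41 itself, and in 2 lower genes, DLX2 and TTC3, against 7.43% of all windows, and over every listed start in 2 genes of each direction, against 8.77%. The AP-1 element was present in 0 of 13 higher and 2 of 13 lower genes, AMIGO2 and MBNL2, against 4.92% of all windows, and MBNL2 held 2 copies. The CCAAT box was common, in 4 of 13 genes of each direction (30.8%), against 35.7% of all windows. The TATA box TATAAA was present in PGAM2 and NASP, 1 gene of each direction, against 12.0%, and over every listed start in 1 higher and 3 lower genes, against 13.99%. A match is a run of letters and not a site shown to be bound.

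**Figure D5:**
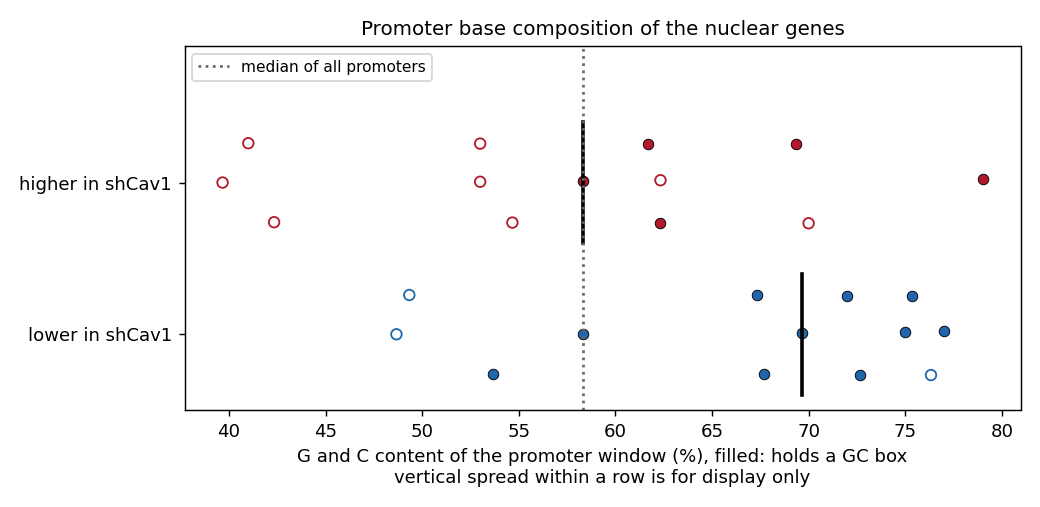
G and C content (%) of the 300-base promoter window of 13 genes higher and 13 lower in shCav1, filled where the window holds a GC box; black bars are medians and the dotted line is the median of all promoters. Points of both directions span from under 50% to over 75%.

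Lists of nuclear proteins gave the context of pathway members that were not listed. Of 894 genes in 12 lists, 9 carried a listed probe set, and all 9 are described above. That is 0.559% higher and 0.447% lower, beside 0.501% and 0.299% of all kept probe sets, over genes rather than probe sets and without knowing how many have a probe set. Of 622 zinc finger genes 4 were listed, ZNF22 and ZNF117 higher, ZNF215 and ZBTB10 lower, or 0.322% in each direction, near the background. Of 36 homeobox genes, a list without PRRX1, IRX3 and TSHZ1 were listed as higher and DLX2 as lower, 8.33% in all. BHLHE41 was the listed member, higher, of 33 helix-loop-helix and leucine zipper genes (3.03%), and MBNL2, lower, that of 21 genes of RNA binding, splicing and export (4.76%). With 1 to 3 listed genes in each, nothing is read from these 3 shares. The remaining 8 lists had no gene among the named ones past 2-fold. They cover nuclear receptors and their coregulators, the SOX, FOX, ETS and GATA factors, the SMAD, STAT and NF-kB factors, and chromatin regulators. They also cover DNA replication and repair, cell cycle and mitosis, nuclear stress signalling, and ubiquitin and SUMO enzymes. The lists are partial and leave out HDAC8, ASXL3, NAP1L3, NASP, UBE3C, TTC3, SFRS15 and CCNDBP1, which are past 2-fold as given above. They also leave out the 11 nuclear genes set aside by name, which are past 2-fold too. An empty list or a share near the background therefore does not cover those genes. Genes with no listed probe set have no name in the tables used here, so smaller differences in these lists could not be read.

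The split by direction is given beside that of genes annotated to other places. Of the 35 genes 51.4% were higher, and with the 11 set aside 23 of 46 were higher. Of the 120 genes with a component annotation but without the term 69.2% were higher, 83 against 37 lower. All of these are 2-fold entries of the same 2 arrays, the difference in shares was not tested, and nothing is claimed from it.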

How the data were processed

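Gene expression was measured in 1 shCav1 and 1 shCtl sample of Hep3B on Affymetrix HG-U133 Plus 2.0 arrays, per the file headers and the labels, with 54613 probe sets after 62 controls were left out. RMA, with no version given, is the tool named in the submitters' processing notes. The authors deposited log2 values centred for each probe set around the mean of the 2 arrays, which keep the difference but not the level. The deposited intensity table gives a linear signal per probe set, and its control column was matched to shCtl by name, while 1 column with a name that matches no label was not used. The authors' deposited tables give a log2 difference and a linear fold (larger over smaller), equal to the series values within 1e-05. Samples were grouped by title.

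The difference is shCav1 minus shCtl, and the shCav1 signal is the shCtl signal multiplied by the fold. Where a gene had several listed probe sets past the brightness filter, the one with the higher mean signal stood for it. With 1 array per group there was no test, and the number of arrays limits precision. Genes found by the rule were named, with CAV1 as the target and 1 exception given below. The members, the lists and the roles were chosen with earlier results of these data known. All 35 Entrez identifiers matched RefSeq genes of GRCh38.p14, where 1 symbol was updated (SFRS15). Process annotation of 4 members was not used here, and 1 member, included in the counts and medians, is not reported by name or value. Gene starts, lengths, order and promoter windows came from RefSeq, and deposited coordinates were not placed on that build. Only the lengths of the deposited alignments were divided by RefSeq gene lengths. Such a share can therefore pass the full gene, as for BHLHE41 at 104%. Counting was tested on simulated data. Alternatives were no filter, the 75th percentile, loess (span 0.3), centring on the spikes, a pseudocount of 16, limits of 1.5-fold and 3-fold, a wider term, dropping _s_at and _x_at probe sets, and probe set means. Work was done in Python 3.11.15 with pandas 2.3.3 and statsmodels 0.14.6.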

Additional observations from a re-analysis of the deposited data

How the results depend on the processing

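The counts of 18 higher and 15 lower nuclear genes stayed within 1.5 times with no brightness filter, loess, centring on the spikes, a wider component term and without _s_at and _x_at probe sets. Centring on the spikes gave 13 higher and 15 lower. Genes that centring would bring past 2-fold have no name here and could not be added. The medians over all 18 higher and 15 kept lower genes were then 1.17 and -1.26. A filter at the 75th percentile (a signal of 132), which keeps fewer probe sets, gave 9 higher and 8 lower. Adding a pseudocount of 16, which by construction pulls dim values in, gave 11 higher and 7 lower. The median over all 18 higher genes was then 1.07 instead of 1.30. A limit of 3-fold gave 5 and 0. At 1.5-fold nuclear genes could not be counted, since names are given for the 2-fold entries, and 1.96% of kept probe sets were higher and 2.05% lower. No gene changed sign under the settings run, but this says nothing of how firm the values are. Members were chosen at 2-fold or more, centring shifts values by 0.14, and a pseudocount cannot turn a sign. The pseudocount moved 18 of the 33 genes by more than the robust SD of 0.21, and the mean over probe sets moved ZNF22 to 1.96. No paired analysis was possible because there is 1 array per group. The values of NASP and ZBTB10, under the brightness filter on both arrays, are the ones most limited by signal over background.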

Other observations

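Some further listed genes held component terms that contain the letters of nucleus but not the exact term, such as the region around the nucleus. Given here are 4 of them, all higher in shCav1. Of the 120 annotated genes without the exact term 69.2% were higher, and nothing is read from the direction of these 4. CHODL, a membrane lectin, had 2114 in shCav1, against 281 in shCtl, a log2 difference of 2.91. BCHE, butyrylcholinesterase, had 58.3 in shCav1, against 11.6 in shCtl, a log2 difference of 2.34 from a dim control signal. RPS6KA6, a ribosomal S6 kinase, had 92.0 in shCav1, against 26.3 in shCtl, a log2 difference of 1.81. RNF128, a membrane-bound ubiquitin ligase, had 767 in shCav1, against 371 in shCtl. These genes were looked at after their values were known, and no test was run on them.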
